A study of Homo sapiens with 20 samples.

Results

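The BCL2 family was described by 10 of its genes, taken as the entries of the deposited count table that carry the symbols BCL2, BCL2L1, BCL2A1, MCL1, BAX, BAK1, BBC3, PMAIP1, BID and BCL2L11. These are 10 of the 20314 genes in the table, each symbol matched 1 entry, and all 10 had enough counts to be among the 14992 genes tested. Members were taken by symbol and not by a threshold on any value, although the set was proposed with earlier results of these data known. Proteins of this family decide whether the outer mitochondrial membrane is opened during apoptosis. The anti-apoptotic members BCL2, BCL-XL (gene BCL2L1), BFL-1/A1 (gene BCL2A1) and MCL-1 hold back the pore-forming effectors BAX and BAK (gene BAK1). The BH3-only members PUMA (gene BBC3), NOXA (gene PMAIP1), BID and BIM (gene BCL2L11) bind the anti-apoptotic proteins or activate the effectors. Several of the genes are known transcriptional targets of p53 (BBC3, PMAIP1, BAX) or NF-κB (BCL2A1, BCL2L1), the factors that respond to DNA breaks. Part of the family is controlled at the protein level, which mRNA does not show.

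The libraries came from U2-OS, an osteosarcoma line of human origin with wild-type p53, and formed 4 groups of 5 grown in DMEM with fetal calf serum. The groups were untreated cells, cells at 90 minutes and at 7 days after ionizing radiation (IR) with 20 Gy, and non-irradiated cells in which an shRNA lowered NFKBIA, the gene of the NF-κB inhibitor IκBα. The study calls the first time the first phase of NF-κB activation and the second time, when the cells are senescent, the second phase. The methods describe lentiviral shRNA vectors, puromycin-selected clones, doxycycline and scrambled shRNA as control, but no library is labelled as scrambled, and the untreated labels name neither vector nor doxycycline. Vector, selection and loss of NFKBIA therefore cannot be told apart in the comparison of the knockdown with untreated cells.

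Reads counted on genes ranged from 22535659 to 40390961 per library, with group medians between 32477669 and 35627047, and levels are given as CPM, read counts brought to a common library size with TMM factors. The targeted gene NFKBIA measured 31.3 ± 7.25 CPM (SD, n = 5) in untreated cells, 82.1 ± 5.27 at 90 minutes, 30.8 ± 1.59 at 7 days and 12.1 ± 0.667 in the knockdown. Its log2 fold change in the knockdown was -1.36 ± 0.11 (SE; edgeR quasi-likelihood test, Benjamini-Hochberg adjusted p = 4.87e-09), and the knockdown libraries lay below all others. The lineage genes RUNX2, COL1A1, SPARC, ALPL and SPP1 and the mesenchymal genes VIM and CDH2 were present, whereas the osteoblast genes SP7 and IBSP were at most 0.0891 and 0.0294 CPM. The osteoblast gene BGLAP was low, with group means from 0.848 CPM in the knockdown to 1.15 CPM in untreated cells. Over all libraries the 8 osteoblast lineage markers summed to 2755 to 4750 CPM, most of it COL1A1 and SPARC, and the 2 mesenchymal markers to 1940.1 to 3091 CPM. The 2 epithelial markers summed to 2.82 to 6.31 CPM, and the endothelial marker CDH5 was at most 0.231 CPM. At these low levels the epithelial markers CDH1 and EPCAM were called lower at 7 days (log2 fold changes -0.72 and -0.86). CDH1 was also called lower in the knockdown (-2.01), and EPCAM was not called there. Single osteoblast lineage markers moved in different directions: SPP1 and ALPL were called higher at 7 days (log2 fold changes 2.64 and 0.77) and SPARC lower (-0.75), COL1A1 and ALPL lower in the knockdown (-1.68 and -1.96), and RUNX2 lower at 90 minutes (-0.56). Untreated replicate 5, the library of lowest depth, stood apart: 31.6% of genes differed by more than 0.5 on the log2 scale from the mean of its group mates. This share was 16.4% in untreated replicate 4 and 2.20 to 6.84% in the other libraries. The labels tie the groups to sequencing lanes: lane 2 held untreated replicates 1 to 4 and lane 6 knockdown replicates 2 to 5, so lane and group can hardly be told apart in comparisons with untreated cells. The study describes the libraries of a group as biological replicates, whereas the labels give only a replicate number and do not name separate cultures, so p-values measure the spread between these libraries. In bulk RNA, fewer cells of a kind and less RNA per cell cannot be told apart.

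The sequences before the start sites of the 3 members with the largest changes are shown because these genes carry most of what follows. Each is the 250 bases before a RefSeq start on GRCh38.p14, 5′ to 3′ on the minus strand: BBC3 at chr19:47232668-47232917, BCL2A1 at chr15:79971197-79971446 and BCL2L1 at chr20:31723964-31724213. Capitals mark TGANTCA, the AP-1 type motif, in BBC3 and the TATA box word TATAAA in BCL2A1 and BCL2L1.
BBC3: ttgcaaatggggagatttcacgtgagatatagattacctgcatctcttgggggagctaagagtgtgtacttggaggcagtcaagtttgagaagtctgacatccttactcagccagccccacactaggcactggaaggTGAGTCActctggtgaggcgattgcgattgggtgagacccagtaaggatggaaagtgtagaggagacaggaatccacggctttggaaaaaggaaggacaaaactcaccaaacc
BCL2A1: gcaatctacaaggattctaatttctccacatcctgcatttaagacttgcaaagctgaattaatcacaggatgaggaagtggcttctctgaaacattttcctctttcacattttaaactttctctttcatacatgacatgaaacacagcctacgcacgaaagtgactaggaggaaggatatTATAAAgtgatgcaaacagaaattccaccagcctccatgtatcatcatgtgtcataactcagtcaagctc
BCL2L1: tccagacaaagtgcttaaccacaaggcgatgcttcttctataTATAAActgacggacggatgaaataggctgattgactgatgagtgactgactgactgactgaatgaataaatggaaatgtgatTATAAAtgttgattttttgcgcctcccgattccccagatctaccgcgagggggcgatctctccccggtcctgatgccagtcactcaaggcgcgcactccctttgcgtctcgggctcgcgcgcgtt
RefSeq windows of 250 bases before to 50 bases after a start were at hand for 9 of the 10 members, 14 windows in all, and MCL1 was not among them. Both strands were searched. TGANTCA, found in 7.71% of 35116 windows of the same length, was present among members only in BBC3, at -113 to -107 from the start. TATAAA, found in 11.5% of windows, was present at -70 to -65 in BCL2A1 and at -208 to -203 and -125 to -120 in BCL2L1. The NF-κB consensus was in 0 of the 14 windows and in 5.91% of all windows, and TGACGTCA, the CRE type motif, was in 0 of the 14 and in 1.85% of all. The p53 half-site consensus, found in 6.63% of all windows, was present only in BAK1, at -73 to -64. A match is a description of the letters and not a binding site. GENCODE 29 places the far end of the gene models of BBC3, BCL2A1 and BCL2L1 inside or at the edge of the printed windows (chromosome 19 at 47232766, chromosome 15 at 79971446 and chromosome 20 at 31723989), so annotations differ in the start they give.

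BBC3 was the only member called at 90 minutes, whereas 5 members were called at 7 days, all higher, and none in the knockdown. Calls required both an adjusted p under 0.05 and a change of more than 0.5 in either direction on the log2 scale (edgeR quasi-likelihood test, Benjamini-Hochberg over all genes tested). At 90 minutes 1 of 10 members was called beside 3.66% of all genes (2.08% higher and 1.57% lower), and 3 members (BBC3, MCL1, PMAIP1) had groups that did not overlap beside 12.3% of all genes. At 7 days BCL2L1, BCL2A1, BBC3, PMAIP1 and BID were called, 5 of 10 beside 31.1% of all genes (16.7% higher and 14.4% lower), and 7 members did not overlap beside 44.8%. In the knockdown 0 of 10 were called by edgeR and by DESeq2 beside 12.7% of all genes (5.18% higher and 7.53% lower), with 4 members at an unadjusted p under 0.05. At least 40.5% of all genes passed at an unadjusted p there, since that share passed by adjusted p. There, 3 members (BCL2L1, MCL1, PMAIP1) did not overlap with untreated cells, beside 24.1% of all genes. The median log2 fold change over the 10 members was 0.08, 0.53 and 0.12 in these comparisons, beside -0.03, 0.01 and -0.01 over all genes. The 3 comparisons share the untreated libraries.

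Compared directly, 7 days against 90 minutes gave 4 called members beside 29.3% of all genes (16.8% higher and 12.6% lower), with BCL2L1, BCL2A1 and BID higher and BBC3 lower, and 8 members did not overlap beside 61.8%. The comparison of 7 days with the knockdown gave 4 called members beside 25.7% of all genes (15.8% higher and 9.89% lower), BCL2L1, BCL2A1, BBC3 and BID, all higher, and 7 did not overlap beside 60.7%. By adjusted p alone, with no fold threshold, 3, 10 and 3 members passed at 90 minutes, at 7 days and in the knockdown against untreated cells, beside 21.3%, 64.2% and 40.5% of all genes. The same rule passed 9 members for 7 days against 90 minutes beside 60.9% of all genes and 8 against the knockdown beside 57.4%. At 7 days against untreated cells the members' share was above that of all genes by each of these rules, and in the knockdown their share of calls was below it. The differences between these shares were not tested, and what follows concerns single members. For each single member whose groups did not overlap, the exact two-sided permutation test gave p = 0.00794, the smallest that 5 libraries against 5 allow, unadjusted. This value is fixed once the groups do not overlap, so it adds nothing to the non-overlap. For members that overlapped, the tests could differ. For 7 days against the knockdown, BCL2, MCL1 and BCL2L11 overlapped and each had a permutation p = 0.0159, unadjusted. There edgeR gave adjusted p = 0.132, 0.507 and 0.000822.

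**Figure D1:**
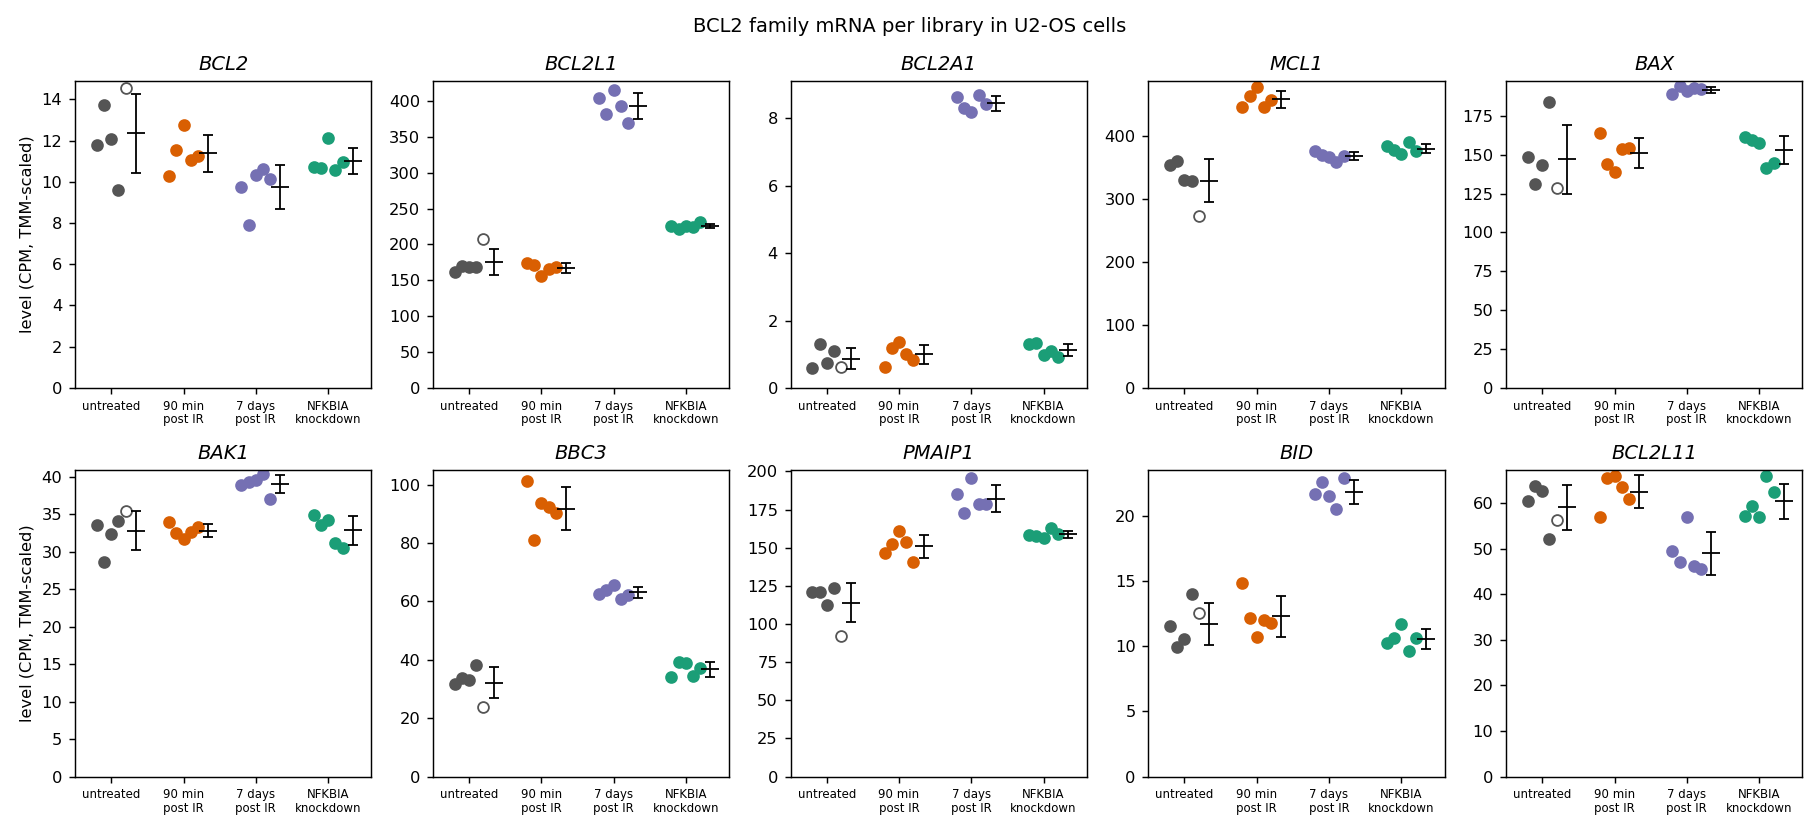
Levels of the 10 members in each library, in CPM scaled by TMM from 0, with points for the 5 libraries of a group in replicate order, bars for the mean ± SD and an open circle for untreated replicate 5. BCL2A1 stood at 8.19 to 8.70 CPM at 7 days and at 1.35 CPM or less in every other library, and BBC3 was highest at 90 minutes.

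Among the anti-apoptotic members, BCL2L1 and BCL2A1 rose at 7 days. BCL2L1 (ENSG00000171552, chr20:31664452-31723989 in GENCODE 29 on GRCh38) encodes BCL-XL, which holds BAX and BAK inactive. It measured 161, 171, 169, 169 and 208 CPM in untreated replicates 1 to 5. At 90 minutes it measured 174, 171, 157, 166 and 168 CPM. It measured 404, 382, 415, 393 and 369.6 CPM at 7 days. The 7 days libraries lay above every other library, while untreated and 90-minute libraries overlapped. In the knockdown BCL2L1 measured 225, 222, 226, 224 and 231 CPM, above all untreated libraries, the nearest being replicate 5 with 208. The log2 fold change at 7 days was 1.16 ± 0.0574 (SE), a 2.24-fold higher level (edgeR adjusted p = 2.86e-13), and the difference from 90 minutes was 1.23 (edgeR adjusted p = 1.54e-13). At 90 minutes the log2 fold change was -0.07 (95% CI -0.19 to 0.05), and -0.0075 without untreated replicate 5. The knockdown value of 0.36 (95% CI 0.25 to 0.48; edgeR adjusted p = 3.18e-05) passed on p and stayed under the fold threshold (0.41 without untreated replicate 5), and at 7 days the level exceeded that of the knockdown by 0.80 (edgeR adjusted p = 1.36e-10). The order was thus untreated and 90 minutes, which did not differ beyond their spread, then knockdown, then 7 days. With lane as a factor 7 days stayed highest, but the rest of the order did not hold: the 90-minute value was then -0.31 (edgeR adjusted p = 0.00194) and the knockdown value 0.12 (edgeR adjusted p = 0.481), where untreated replicate 5, the highest untreated library, carries the comparison. Over all alternatives the adjusted p ranged from 0.00194 to 0.905 at 90 minutes and from 2.06e-08 to 0.481 in the knockdown. Gene counts do not separate the long and the short isoform of BCL2L1, and 1424 exonic bases overlap the antisense gene ABALON. The strand setting of the counting is not given in the sources used here.

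BCL2A1 (ENSG00000140379, chr15:79960889-79971446), the member mostly known from blood cells and inflamed tissue, was the least abundant before irradiation. It measured 0.594, 1.30, 0.751, 1.09 and 0.618 CPM in untreated replicates 1 to 5, from 13 to 47 reads each. At 90 minutes the values were 0.610, 1.18, 1.35, 0.996 and 0.821 CPM, from 24 to 48 reads. At 7 days they were 8.63, 8.31, 8.19, 8.70 and 8.41 CPM, from 235 to 295 reads. These 5 libraries lay far above all others and close together. The knockdown gave 1.29, 1.33, 0.987, 1.10 and 0.921 CPM, from 26 to 44 reads, within the span of the untreated and 90-minute libraries. BCL2A1 rose 9.52-fold at 7 days (log2 fold change 3.25 ± 0.173, SE; edgeR adjusted p = 9.53e-13), by 3.09 over 90 minutes (edgeR adjusted p = 1.46e-12) and by 2.90 over the knockdown (edgeR adjusted p = 4.63e-12). Neither the 90-minute value of 0.16 (95% CI -0.29 to 0.60) nor the knockdown value of 0.36 (95% CI -0.09 to 0.80) was called, and the intervals are wide at these counts. With 1 library left out the 90-minute value ranged from 0.03 to 0.36. Without untreated replicate 2 the knockdown value was 0.56 and passed both thresholds. Because the gene is expressed in leukocytes, the 5 leukocyte markers are given beside it. Their summed level was 1.22 to 2.95 CPM in untreated libraries, 1.16 to 1.47 at 90 minutes, 1.61 to 2.403 at 7 days and 0.638 to 0.853 in the knockdown. The T cell gene CD3E was at 0 in every 90-minute and knockdown library, at most 0.0304 CPM at 7 days, and reached 0.571 CPM (12 reads) in 1 untreated library. The myeloid gene LYZ was at most 0.122 CPM in any library. CD14, of monocytes, averaged 0.386 CPM at 7 days (7 to 14 reads) against 0.0970 in untreated cells, and all its 7 days libraries lay above the untreated ones. The B cell gene CD79A was called lower at 7 days (0.228 against 0.471 CPM, log2 fold change -1.004; edgeR adjusted p = 0.00729). The leukocyte gene PTPRC was not called at 7 days against untreated cells (1.34 against 1.05 CPM, edgeR adjusted p = 0.0754) and was called higher at 7 days than at 90 minutes and than in the knockdown, by 0.66 and 1.92 on the log2 scale, and lower in the knockdown than in untreated cells (-1.52). The part of such cells or transcripts in the BCL2A1 result was not tested.

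MCL1 (ENSG00000143384, chr1:150574551-150579738), a short-lived anti-apoptotic member, was the most abundant member per transcript length in untreated cells and was highest at 90 minutes. Untreated replicates 1 to 5 had 353, 361, 330.3, 328 and 272 CPM, with replicate 5 lowest. The 90-minute libraries had 445, 464, 477, 446 and 457 CPM, above every library of the other groups. The 7 days libraries had 375, 370.2, 366, 359 and 368 CPM, overlapping the untreated ones. The knockdown libraries had 383, 378, 371, 389.9 and 376 CPM, all above the untreated ones. The log2 fold change was 0.48 at 90 minutes (95% CI 0.36 to 0.59; edgeR adjusted p = 2.90e-06), just under the threshold of 0.5. It was 0.16 at 7 days (edgeR adjusted p = 0.0162) and 0.21 in the knockdown (edgeR adjusted p = 0.00563). The 7 days level was 0.32 below that at 90 minutes, as a log2 fold change of -0.32 (edgeR adjusted p = 5.01e-05). Without untreated replicate 5 the values against untreated cells were 0.41 at 90 minutes, 0.08 at 7 days and 0.13 in the knockdown, and the 90-minute value passed the threshold without untreated replicate 1 or replicate 2 (at most 0.51). Splice forms of MCL1 are not separated in gene counts.

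BCL2 (ENSG00000171791, chr18:63123346-63320128), the founding member of the family, was low in every group and not called in any comparison. It ranged from 9.59 to 14.6 CPM in untreated cells, from 10.3 to 12.7 at 90 minutes, from 7.92 to 10.6 at 7 days and from 10.6 to 12.1 in the knockdown. All groups overlapped untreated cells. The largest difference was that at 7 days, a log2 fold change of -0.34 (edgeR adjusted p = 0.00465). At 90 minutes the value was -0.12 (95% CI -0.31 to 0.08), and it was -0.06 without untreated replicate 5 and -0.20 without untreated replicate 4.

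Neither effector was called in any comparison, and both stood higher at 7 days than in every other group. BAX (ENSG00000087088, chr19:48954815-48961798) forms pores in the outer mitochondrial membrane once activated. It measured 149, 131, 143, 184 and 129 CPM in untreated replicates 1 to 5, with replicate 4 well above the rest. At 7 days the values were 189, 194, 191, 193 and 192 CPM, above all untreated libraries and nearly equal. At 90 minutes BAX ranged from 139 to 164 CPM and in the knockdown from 142 to 161, inside the untreated range. The 7 days value against untreated cells was 0.38 (edgeR adjusted p = 0.000161), and those at 90 minutes and in the knockdown were 0.04 (95% CI -0.12 to 0.19) and 0.06. BAK1 (ENSG00000030110, chr6:33572547-33580293), the other pore-forming member, measured 32.8 ± 2.56 CPM in untreated cells, 32.8 ± 0.878 at 90 minutes, 39.0 ± 1.25 at 7 days and 32.9 ± 1.93 in the knockdown (SD, n = 5). Its 7 days libraries, at 37.0 to 40.3 CPM, all lay above the untreated ones, at 28.6 to 35.4, with a log2 fold change of 0.25 (edgeR adjusted p = 0.000333). The values at 90 minutes and in the knockdown were 0.00 (95% CI -0.11 to 0.11) and 0.01, and both turned slightly negative with RLE factors in place of TMM. BAK1 shares 91 exonic bases with the antisense gene GGNBP1, which has an entry of its own in the count table.

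**Figure D2:**
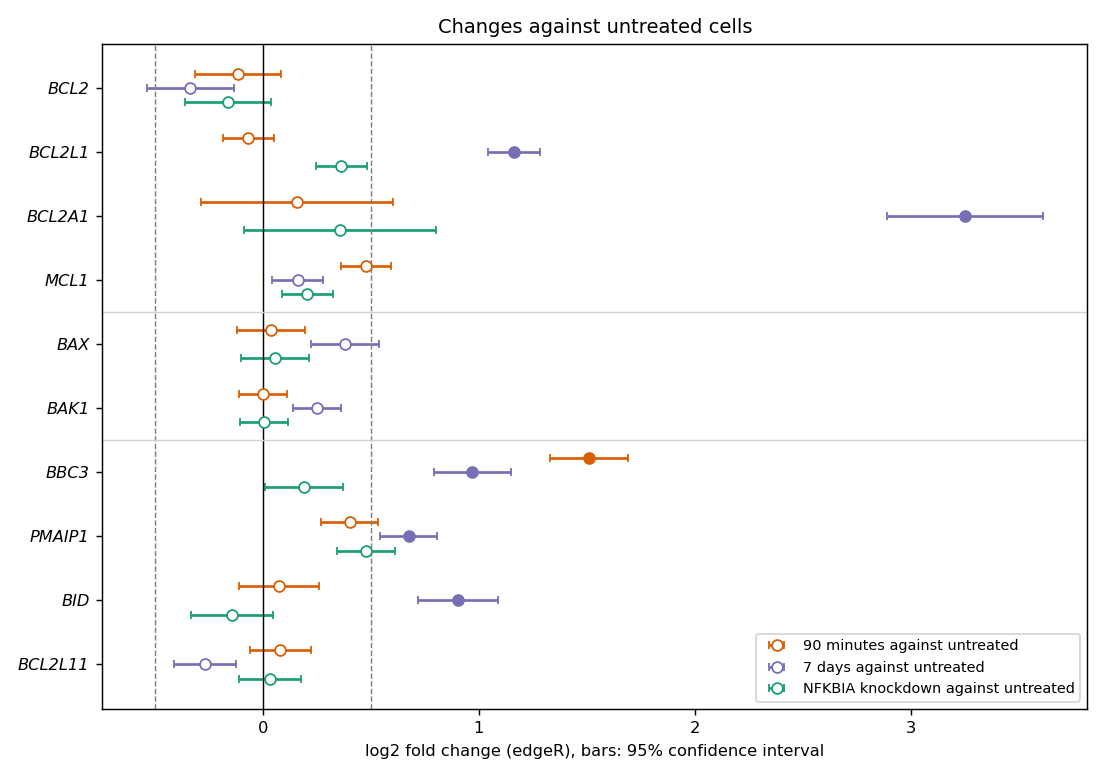
Log2 fold changes of the members against untreated cells with 95% confidence intervals, with filled points for called members and dashed lines at a log2 fold change of 0.5 in either direction. At 90 minutes BBC3 alone is filled, at 7 days the filled members are BCL2L1, BCL2A1, BBC3, PMAIP1 and BID, and in the knockdown there is none.

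BBC3 and PMAIP1, both p53 targets of the BH3-only class, differed in their course. BBC3 (ENSG00000105327, chr19:47220822-47232766) encodes PUMA, which binds all anti-apoptotic members. It measured 31.7, 33.7, 33.0, 38.3 and 23.9 CPM in untreated replicates 1 to 5, with replicate 5 lowest. At 90 minutes it measured 101, 81.0, 93.6, 92.5 and 90.4 CPM. It measured 62.6, 63.9, 65.6, 61.0 and 62.3 CPM at 7 days. All 90-minute libraries lay above all 7 days libraries, and these above all untreated and knockdown libraries. The knockdown gave 33.99, 39.1, 39.1, 34.4 and 37.1 CPM, overlapping untreated cells. BBC3 rose 2.85-fold at 90 minutes (log2 fold change 1.51 ± 0.0865, SE; edgeR adjusted p = 7.71e-11) and was still 1.96-fold above untreated cells at 7 days (0.97 ± 0.0860, SE; edgeR adjusted p = 3.35e-09). Between the 2 times it fell by 0.54 on the log2 scale (edgeR adjusted p = 1.08e-05). The knockdown value of 0.19 (95% CI 0.01 to 0.37; edgeR adjusted p = 0.0857) was not called. It was 0.09 (edgeR adjusted p = 0.266) without untreated replicate 5 and 0.24 (edgeR adjusted p = 0.0201) without untreated replicate 4. The microRNA genes MIR3190 and MIR3191 overlap 80 and 76 of its exonic bases.

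PMAIP1 (ENSG00000141682, chr18:59899948-59904306) encodes NOXA, which binds MCL-1 with preference. It measured 121, 121, 113, 123 and 91.9 CPM in untreated replicates 1 to 5, with replicate 5 lowest. At 90 minutes the values were 146, 152, 161, 154 and 141 CPM, and at 7 days 185, 173, 196, 179 and 178 CPM. The knockdown gave 158, 158, 156, 163 and 159 CPM. The 3 groups all lay above every untreated library, and those of 7 days also above every 90-minute and knockdown library. PMAIP1 rose 1.60-fold at 7 days (log2 fold change 0.68 ± 0.0638, SE; edgeR adjusted p = 8.90e-09). The 90-minute value of 0.40 (95% CI 0.27 to 0.54; edgeR adjusted p = 0.000107) and the knockdown value of 0.48 (95% CI 0.34 to 0.61; edgeR adjusted p = 4.69e-06) stayed under the fold threshold. Without untreated replicate 5 these became 0.33 and 0.39, and the 7 days value 0.59. Without untreated replicate 1 or replicate 2 the knockdown value passed the fold threshold by little, as it did with upper-quartile factors (0.50) or library size alone (0.53). Between the times the difference was 0.27 (edgeR adjusted p = 0.000861).

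BID and BCL2L11 took different courses. BID (ENSG00000015475, chr22:17734138-17774770), which links death receptors to mitochondria after cleavage by caspase-8, measured 11.5, 9.96, 10.5, 14.04 and 12.6 CPM in untreated replicates 1 to 5. It measured 21.7, 22.6, 21.5, 20.5 and 22.9 CPM at 7 days, above all libraries of the other groups. At 90 minutes BID ranged from 10.7 to 14.9 CPM and in the knockdown from 9.64 to 11.7, both overlapping untreated cells. BID rose 1.87-fold at 7 days (log2 fold change 0.90 ± 0.0887, SE; edgeR adjusted p = 1.62e-08), by 0.83 over 90 minutes (edgeR adjusted p = 5.35e-08) and by 1.05 over the knockdown (edgeR adjusted p = 2.33e-09). BCL2L11 (ENSG00000153094, chr2:111119378-111168447) encodes BIM, which is known to follow growth factor withdrawal. It ranged from 52.0 to 63.9 CPM in untreated cells, from 56.9 to 65.9 at 90 minutes, from 45.5 to 57.0 at 7 days and from 57.0 to 66.0 in the knockdown. Its 7 days libraries were mostly the lowest but overlapped the untreated ones through replicate 3. The log2 fold change at 7 days was -0.27 (edgeR adjusted p = 0.00187) and that against 90 minutes was -0.35 (edgeR adjusted p = 0.000153), both under the fold threshold. Of its exonic bases, 727 overlap the antisense gene MIR4435-2HG.

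In the direct comparisons of 7 days with the other treated groups, the remaining members stayed under the fold threshold. Against 90 minutes the log2 fold changes were 0.34 for BAX (edgeR adjusted p = 0.000480), 0.25 for BAK1 (edgeR adjusted p = 0.000350) and -0.22 for BCL2 (edgeR adjusted p = 0.0528). Against the knockdown they were 0.33 for BAX (edgeR adjusted p = 0.000912), 0.25 for BAK1 (edgeR adjusted p = 0.000493) and 0.20 for PMAIP1 (edgeR adjusted p = 0.0113). BCL2L11 had -0.30 (edgeR adjusted p = 0.000822), MCL1 -0.05 (edgeR adjusted p = 0.507) and BCL2 -0.17 (edgeR adjusted p = 0.132) in that comparison. The effectors and PMAIP1 thus stood at their highest level at 7 days. For MCL1 the libraries of 7 days and the knockdown overlapped, and the tests differed. The difference did not pass by edgeR, whereas exact permutation gave p = 0.0159 (unadjusted), with 7 days the lower.

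Levels of different genes were compared per length, as RPKM, that is, CPM divided by the deposited gene width in kilobases. MCL1 (77.99 RPKM), BAX (56.8), BCL2L1 (52.9) and PMAIP1 (51.0) were the most abundant members in untreated cells, and BCL2L1 stood first at 7 days with 119 RPKM against 87.2 for MCL1. BCL2, at 1.27 to 1.61 RPKM over the group means, was the lowest at 7 days. BCL2A1 went from 0.799 RPKM in untreated cells, the lowest of the 10, to 7.76 at 7 days, above BCL2, BID and BCL2L11. The 4 anti-apoptotic members summed to 133 ± 4.11 RPKM in untreated cells, 161 ± 2.37 at 90 minutes, 215 ± 5.65 at 7 days and 161 ± 1.63 in the knockdown (SD, n = 5). MCL1 made up 58.4% of this sum in untreated cells, 67.2% at 90 minutes, 40.6% at 7 days and 56.0% in the knockdown. BCL2L1 made up 39.8%, 31.3%, 55.2% and 42.4% in the same order. The leading anti-apoptotic mRNA was thus MCL1 in 3 of the 4 groups and BCL2L1 at 7 days, although in untreated replicate 5 both stood close, at 49.8% and 48.3%.

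**Figure D3:**
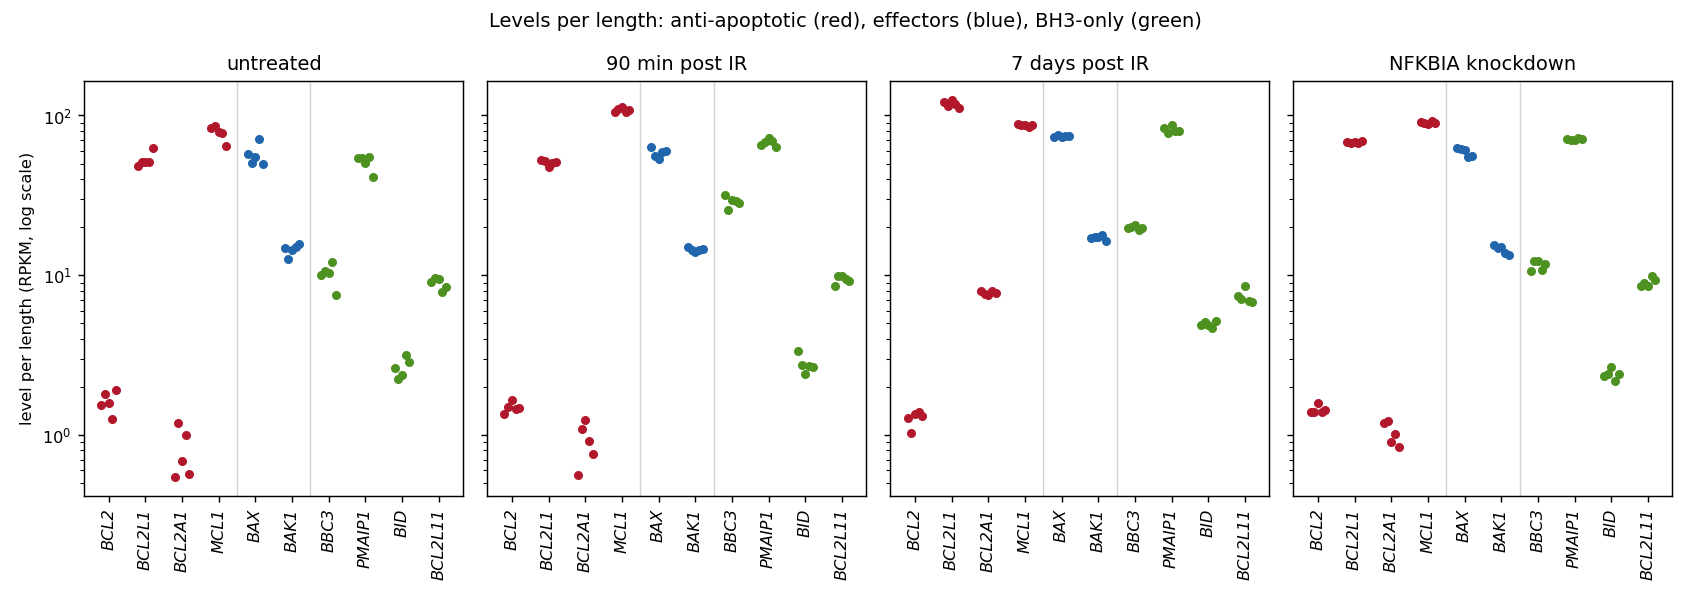
RPKM of each member on a log axis, with a point for each library and 1 panel for each group. Red marks anti-apoptotic members, blue effectors and green BH3-only members. By group means, BCL2L1 passes MCL1 at 7 days (119 against 87.2 RPKM), and BCL2A1 moves from 0.799 RPKM in untreated cells to 7.76 at 7 days.

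The effectors summed to 71.3 ± 9.02 RPKM in untreated cells, 72.8 ± 4.15 at 90 minutes, 91.3 ± 1.004 at 7 days and 73.6 ± 4.38 in the knockdown. The 4 BH3-only members summed to 72.7 ± 7.39, 109 ± 3.94, 114 ± 4.94 and 94.1 ± 1.22 RPKM in the same order (SD, n = 5). Of the RPKM of all 10 members, the anti-apoptotic ones made up 48.2 ± 2.54% in untreated cells, 47.1 ± 0.925% at 90 minutes, 51.2 ± 0.399% at 7 days and 48.9 ± 0.697% in the knockdown. Sums of the anti-apoptotic and of the BH3-only members were both above untreated cells after irradiation and also in the non-irradiated knockdown, and the share moved by a few percentage points. The BAX to BCL2 ratio, often used as a single measure of the balance, averaged 3.57 (SD 0.44) on the log2 scale in untreated cells, with a range of 3.14 to 4.25. It averaged 3.72 (SD 0.20) at 90 minutes, 4.30 (SD 0.18) at 7 days and 3.79 (SD 0.10) in the knockdown, and its lowest 7 days value, 4.17, lay inside the untreated range. Sums, shares and ratios are descriptions of mRNA, and no test was made on them. The deposited width equals the exonic length in GENCODE 29 for 4 of the 10 members, so RPKM depends on the annotation used.

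Lanes were shared by untreated replicate 5 and 90-minute replicates 1 to 3 (lane 3), by 90-minute and 7 days libraries (lane 4), and by 7 days libraries and knockdown replicate 1 (lane 5). With lane as a factor, the fit against untreated cells rests on untreated replicate 5, and it called 25.5% of all genes at 90 minutes, 41.3% at 7 days and 27.3% in the knockdown. In that fit BBC3 at 90 minutes had a log2 fold change of 1.95, and MCL1 (0.76) and PMAIP1 (0.74) were called as well, 3 of 10 members beside the 25.5% of all genes. At 7 days the lane fit kept the 5 calls, with BCL2L1 at 0.92, BCL2A1 at 3.96, BBC3 at 1.41, PMAIP1 at 1.02 and BID at 0.90, and added BAX at 0.52 and BCL2 at -0.67. In the knockdown it called BBC3 (0.52), MCL1 (0.56) and PMAIP1 (0.80), while BCL2L1 had 0.12 and no longer passed on p. BCL2A1, which was not called, went from 0.16 to 0.74 at 90 minutes and from 0.36 to 1.26 in the knockdown. Without untreated replicate 5 and without a lane term, BBC3 at 90 minutes had 1.42, and at 7 days BCL2L1 had 1.21, BCL2A1 3.16, BBC3 0.86 and BID 0.91. Within lane 4, 7 days against 90 minutes gave 1.22 for BCL2L1, 3.20 for BCL2A1, 0.88 for BID and -0.55 for BBC3, with 4 members called beside 29.1% of all genes. Within lane 5, 7 days against the knockdown gave 0.79 for BCL2L1, 2.69 for BCL2A1, 0.88 for BBC3 and 1.06 for BID, with 4 members called beside 24.9% of all genes, but this fit holds 1 knockdown library. No lane held both 7 days and untreated libraries, or both knockdown and untreated libraries.

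**Figure D4:**
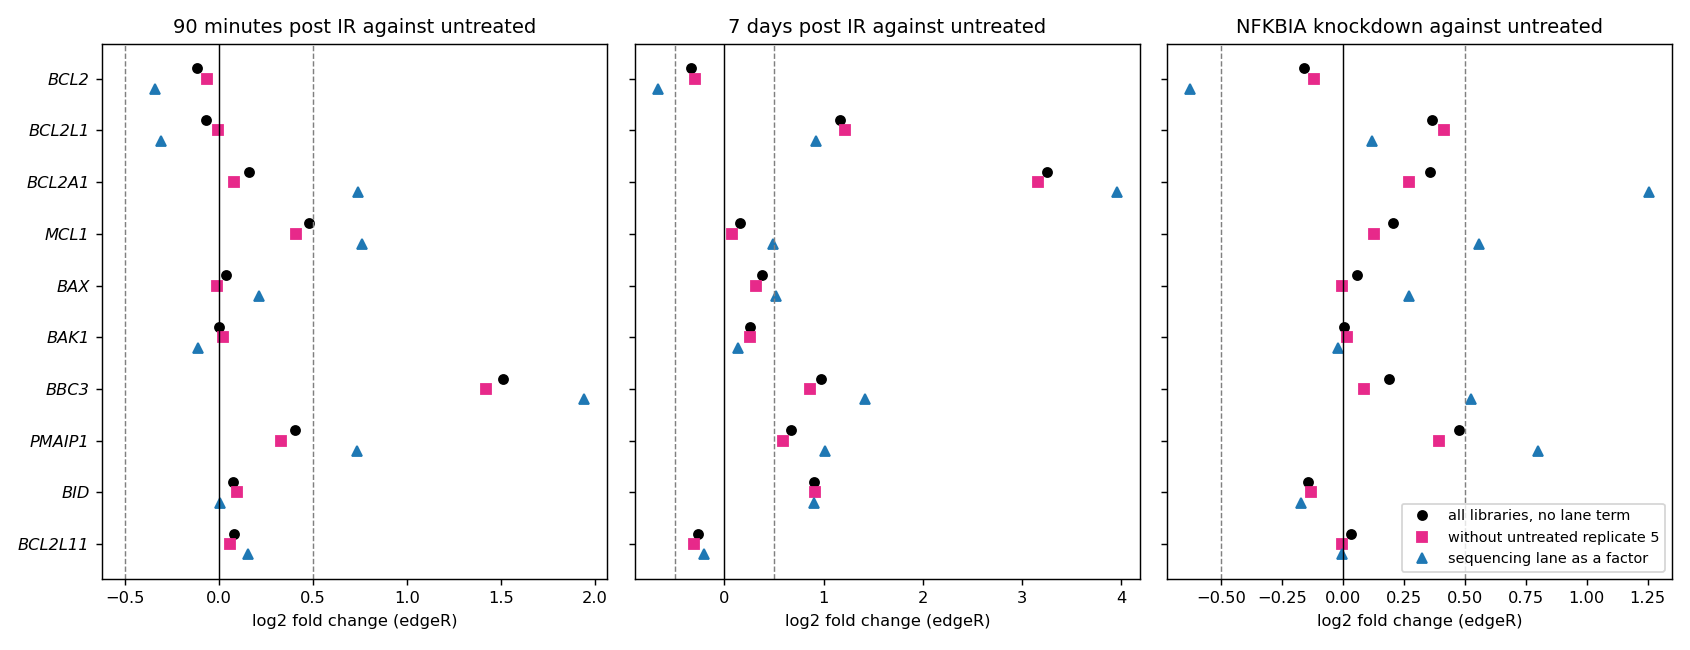
Log2 fold changes of the members against untreated cells in 3 panels (90 minutes, 7 days, knockdown), from all libraries without a lane term (black), without untreated replicate 5 (pink squares) and with lane as a factor (blue triangles). The lane fit moved BBC3, MCL1, PMAIP1 and BCL2A1 upwards in every panel, for example from 1.51 to 1.95 for BBC3 at 90 minutes and from 0.36 to 1.26 for BCL2A1 in the knockdown.

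Other members of the wider family and its partners were described by lists. Of 13 further BCL2 relatives 11 were tested. At 90 minutes 0 were called higher and 1 lower (BMF), beside 3.66% of all genes called. At 7 days 4 were called higher (BCL2L13, BCL2L15, BCL2L2, BNIP3) and 3 lower (BMF, BOK, BCL2L12), 7 of 11 beside 31.1% of all genes. DESeq2 called 3 of them higher, without BCL2L2, whose log2 fold change was 0.50 by edgeR and 0.49 by DESeq2, and BCL2L15 had 1 to 22 reads in each library. BCL2L15, BCL2L2 and BNIP3 are named after their values were seen. BMF, a BH3-only gene tied to the cytoskeleton, measured 22.5 CPM in untreated cells, 13.99 at 90 minutes, 3.94 at 7 days and 23.3 in the knockdown. It fell by 0.68 on the log2 scale at 90 minutes (edgeR adjusted p = 8.92e-08) and by 2.51 at 7 days (edgeR adjusted p = 5.36e-17). In the knockdown 1 relative was called, BIK, a BH3-only gene of the endoplasmic reticulum, which fell by 1.03 from a low level (0.736 against 1.52 CPM; edgeR adjusted p = 0.000305). This 1 of 11 stands beside 12.7% of all genes called in the knockdown and is no result about the list. BCL2L13 rose by 0.65 at 7 days (80.7 against 51.5 CPM), while BOK, an effector relative, fell by 0.66 (71.4 against 113 CPM) and BCL2L12 fell by 0.76 (27.5 against 46.5 CPM).

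Of 14 genes acting downstream of the mitochondrial pore, all tested, 1 was called at 7 days, the caspase inhibitor XIAP (47.8 against 33.6 CPM, log2 fold change 0.51), named after its values were seen, beside 31.1% of all genes, and DESeq2 called 0. At 90 minutes and in the knockdown edgeR and DESeq2 called 0 of the 14, beside 3.66% and 12.7% of all genes by edgeR. At an unadjusted p under 0.05 there were 4 and 5, beside at least 21.3% and 40.5% of all genes, the shares by adjusted p. Of 5 genes that control MCL-1 protein turnover, FBXW7, a ubiquitin ligase component, rose by 1.01 at 90 minutes (edgeR adjusted p = 8.24e-11) and by 0.92 at 7 days (edgeR adjusted p = 1.70e-11). Its level was 43.2 CPM in untreated cells, 86.6 at 90 minutes, 81.4 at 7 days and 39.1 in the knockdown, and it was the only gene of the 5 called in any comparison. This 1 of 5 stands beside 3.66% of all genes called at 90 minutes and 31.1% at 7 days. In the knockdown edgeR and DESeq2 called 0 of the 5, with 3 at an unadjusted p under 0.05, beside at least 40.5% of all genes. Of 8 other p53 targets tied to apoptosis, 4 rose at 90 minutes (FAS, AEN, TNFRSF10B, ZMAT3) and 7 at 7 days, all but SIVA1 (-0.39, named after its values were seen), beside 2.08% and 16.7% of all genes called higher. In the knockdown edgeR and DESeq2 called 0 of the 8, with 5 at an unadjusted p under 0.05, beside at least 40.5% of all genes. The death receptor gene FAS measured 34.04 CPM in untreated cells, 69.9 at 90 minutes, 120 at 7 days and 45.9 in the knockdown, with log2 fold changes of 1.04, 1.82 and 0.43. PIDD1, which acts upstream of caspase-2, had 0.10 at 90 minutes and rose by 0.99 at 7 days.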

How the data were processed

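RNA was sequenced in 20 libraries of U2-OS cells, 5 in each of 4 groups. The authors deposited whole-number read counts per gene without normalization. According to the methods and labels, RNA was extracted with Trizol and stranded mRNA libraries were read on a HiSeq instrument as single reads of 100 bases. The submitters' processing notes name bcl2fastq, Trimmomatic, STAR 2.4.2a and hg19, but the counting tool, annotation and strand setting are not given in the sources used here. Counts of overlapping genes and paralogs may therefore include reads of each other. GRCh38 coordinates came from GENCODE 29 and promoter windows from RefSeq, and neither was the build of the files.

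The deposited counts were tested with edgeR 4.0.16 under R 4.3.3. Of 20314 genes, 1217 had 0 counts in all libraries and 14992 passed filterByExpr (minimum count 10). Libraries were scaled by TMM, 1 quasi-likelihood model with a term per group was fitted to all 20 libraries, and 5 comparisons were made. Adjustment of p-values followed Benjamini and Hochberg over all genes tested. Standard errors were derived from the F statistic. Single members were also compared by exact permutation of log2 CPM with a prior count of 2. CPM and RPKM were computed here from the counts, RPKM with the deposited gene width. Libraries of a group differed by more than sampling noise (chi-square per degree of freedom at least 1.75). Each was counted as 1 replicate, although this value does not show that they came from separate cultures. With 22535659 to 40390961 counts per library, counting error was largest for BCL2A1 among the members. The test was tried on simulated data with known changes.

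The members and lists were chosen with earlier results of these data known. All 10 members are named. From 4 further lists (other BCL2 relatives, mitochondrial apoptosis downstream, MCL1 turnover, other p53 targets tied to apoptosis) the genes named are those called in at least 2 comparisons, at most 5 a list by the largest change, apart from those marked in the text. Lists of osteoblast, mesenchymal, epithelial, endothelial and leukocyte markers were used to check the label. Alternatives were RLE and upper-quartile factors, library size alone, DESeq2 1.42.0, no filter, at least 10 counts in every library, only the groups compared, replicate number or lane as a factor, other thresholds, a prior count of 0.5 for the BAX to BCL2 ratio, fits within a lane, and each library left out in turn. Fits within lanes 3 and 5 were chosen after seeing the data. Figures were drawn with matplotlib 3.10.9.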

Additional observations from a re-analysis of the deposited data

Results flagged for a closer look

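Of 40 groups of 5 libraries (10 members in 4 groups), 2 held a library whose gap to its nearest mate, as a share of the range of the group, passed Dixon's critical value of 0.71. Chance gives about 1 such group in 20. BCL2L1 in untreated replicate 5 stood at 208 CPM, above its mates, with a ratio of 0.772. BCL2 in knockdown replicate 3 stood at 12.1 CPM, with a ratio of 0.754.

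In the direct comparison of 7 days with 90 minutes, 4 members were called (edgeR), beside 29.3% of all genes. A call required an adjusted p under 0.05 and a log2 change of more than 0.5 in either direction. By adjusted p alone 9 members passed, beside 60.9% of all genes. The values of the 4 called members follow. The log2 effect at 7 days exceeded that at 90 minutes by 1.23 for BCL2L1, 3.09 for BCL2A1 and 0.83 for BID. For BBC3 the effect at 7 days less that at 90 minutes was -0.54.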

How the results depend on the processing

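Called members kept their calls under the alternatives tried, except by a fold threshold of log2 1. The fits within lanes 3 and 5 have an arm of 1 library, assumed to vary like the others, and say nothing of stability. Of 580 values for single members under alternatives, 547 kept their direction and side of the threshold, 14 passed it newly and 19 changed sign, all of these not called and near 0. The count of called members at 90 minutes, 1 as reported, was 3 with lane as a factor (25.5% of all genes called) and 3 by adjusted p alone (21.3%). With 1 library left out it was 1 to 2. It was 2 without untreated replicate 1 (4.26% of all genes) or without replicate 2 (4.57%). In the knockdown the count of 0 became 3 with lane as a factor (27.3% of all genes called), 3 by adjusted p alone, 1 with library size alone, 1 with upper-quartile factors and 0 to 2 with 1 library left out (PMAIP1 without untreated replicate 1 or 2, BCL2A1 without replicate 2). At 7 days the counts by adjusted p alone were 10 against untreated cells, 9 against 90 minutes and 8 against the knockdown. These stand beside 64.2%, 60.9% and 57.4% of all genes. With a log2 fold change above 1 the counts were 2 in each, beside 12.2%, 10.8% and 10.2% of all genes. The cause of the rise in calls with lane, over all genes as among the members, was not tested.

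BAK1 at 90 minutes, 0.00 as reported, was -0.010 with at least 10 counts in every library, -0.00015 with DESeq2, -0.0080 with no filter, -0.0033 with RLE, -0.016 with upper-quartile factors, -0.11 with lane as a factor, -0.12 within lane 3, and -0.044 to 0.022 with 1 library left out. BAK1 in the knockdown, 0.01 as reported, was -0.013 with at least 10 counts in every library, -0.0019 with DESeq2, -0.018 with no filter, -0.0060 with RLE, -0.022 with lane, and -0.038 to 0.031 with 1 library left out. With 1 library left out BAX ranged from -0.013 to 0.12 at 90 minutes and from -0.0047 to 0.13 in the knockdown, and BCL2L11 in the knockdown from -0.032 to 0.063, with -0.0026 for the lane fit. BID at 90 minutes was -0.0043 within lane 3.

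The replicate numbers did not pair the libraries: 2 of 30 pairs of same-numbered libraries had a correlation of deviations above 0.1 (range -0.25 to 0.12). With the replicate block the counts of called members stayed at 1, 5, 0, 4 and 4, and BBC3 at 90 minutes had 1.52. Other scalings moved the median of all genes by at most 0.06 (log2), but the share of higher genes among the calls in the knockdown went from 40.8% to 51.2% with library size alone. Depth limited BCL2A1 outside 7 days, where a library held 13 to 48 reads.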

Other observations

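The genes outside the family whose log2 CPM ran most like that of a member over the 20 libraries are given as a description. Libraries of a group share their treatment and mostly their lane, and no p was computed. For BBC3 these were MAFF (Pearson r = 0.99), RNF19B (0.98) and SESN1 (0.97). The most similar gene was KRT79 for BCL2A1 (0.98), PSG4, of a multigene family whose reads may be shared, for BCL2L1 (0.99), TGFBR1 for MCL1 (0.98) and LIG3 for BCL2 (0.86). It was PPIF for BAX (0.95), NOP2 for BAK1 (0.94), AP1AR for PMAIP1 (0.98), OSGIN1 for BID (0.98) and STAG2 for BCL2L11 (0.94).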
